A study of Schizosaccharomyces pombe 972h- with 8 samples.

Results

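The 10 genes described here encode heat shock proteins and chaperones of fission yeast: ssa1, ssa2, sks2, bip1, psi1, swo1, wos2, sti1, hsp16 and hsp9. They were chosen by name, as the rows whose identifier carries one of these names, and they are 10 of the 4854 genes measured. RNA was taken from the wild-type strain 972h- grown in yeast extract medium at 30 °C, either before treatment (control) or 30 min after H2O2 was added to 0.5 mM. Cultures 1 and 2 were each grown from a single colony and sampled before and after the addition, so control and H2O2 cells share genotype, medium and temperature. No untreated sample was taken at 30 min, so the effect of H2O2 cannot be told apart from that of 30 min of further growth. The samples were hybridised to a tiling array (Sp_TMA), on which the labelled target keeps the strand of the transcript, and to an expression array (Sp_EMA), on which the target is double-stranded. There are 2 control and 2 H2O2 arrays per platform, and a replicate number was read as the same culture on both platforms.

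Chaperones bind unfolded or partly folded proteins and keep them from aggregating. Hsp70 proteins bind and release short stretches of a client in a cycle driven by ATP, J-domain proteins start that cycle, and nucleotide exchange factors reset it. Hsp90 takes over later folding steps of many kinases and receptors with the help of co-chaperones, while small heat shock proteins hold unfolded proteins without ATP. In yeasts, transcription of genes of this kind is activated by the heat shock factor Hsf1, which binds repeats of the unit GAA in alternating orientation. In fission yeast many stress genes are also reached by the Sty1 MAP kinase through Atf1, which binds elements with the core TGACGT.

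The promoters of the members are shown because 8 of 10 hold a pair of facing or opposed GAA units (GAANNTTC or TTCNNGAA, searched on both strands from 250 bases before to 50 after the annotated transcript start). The same search found a pair in 20.0% of the 4845 promoters of measured genes in ASM294v3. The 8 sequences below are the 120 bases before the transcript start, written 5′ to 3′ along the gene's own strand from the RefSeq copy of ASM294v3, with every matching pair or triplet in capitals.
ssa1, chrI:2297965-2298084, reverse strand: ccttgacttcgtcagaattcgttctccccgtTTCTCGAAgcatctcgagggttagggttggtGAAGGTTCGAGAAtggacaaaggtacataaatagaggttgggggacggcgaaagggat
ssa2, chrIII:2056923-2057042, forward strand: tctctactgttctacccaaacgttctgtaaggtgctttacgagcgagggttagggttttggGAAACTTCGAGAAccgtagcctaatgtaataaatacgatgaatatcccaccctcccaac
bip1, chrI:1185486-1185605, reverse strand: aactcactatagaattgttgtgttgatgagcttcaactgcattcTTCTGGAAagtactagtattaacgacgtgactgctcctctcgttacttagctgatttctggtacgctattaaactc
swo1, chrI:3891140-3891259, reverse strand: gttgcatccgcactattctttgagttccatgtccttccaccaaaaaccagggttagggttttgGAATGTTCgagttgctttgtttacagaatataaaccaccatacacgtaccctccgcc
wos2, chrI:4469090-4469209, reverse strand: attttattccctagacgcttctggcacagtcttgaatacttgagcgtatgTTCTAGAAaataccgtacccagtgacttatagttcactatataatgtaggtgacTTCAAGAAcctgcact
sti1, chrIII:1263576-1263695, reverse strand: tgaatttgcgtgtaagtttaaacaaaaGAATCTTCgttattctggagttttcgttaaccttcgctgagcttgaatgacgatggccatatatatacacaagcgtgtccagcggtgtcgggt
hsp16, chrII:2660993-2661112, reverse strand: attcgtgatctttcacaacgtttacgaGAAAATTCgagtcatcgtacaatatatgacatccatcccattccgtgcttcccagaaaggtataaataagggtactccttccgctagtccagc
psi1, chrIII:2195535-2195654, reverse strand: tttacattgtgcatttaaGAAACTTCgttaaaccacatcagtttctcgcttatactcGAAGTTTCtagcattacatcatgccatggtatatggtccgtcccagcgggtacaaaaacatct
In ssa1 and ssa2 a further unit follows the pair, giving GAA, TTC and GAA with 2 bases of any kind between neighbours, and this triplet starts at -58 and -59. Searched on both strands, where its other reading is TTC, GAA and TTC, and counted as pairs too, the triplet was in 23 of the 4845 promoters, or 0.475%, and in no other member. The remaining pairs began at -89 in ssa1, -76 in bip1, -57 in swo1, -70 and -16 in wos2, -93 in sti1, -93 in hsp16 and -102 and -63 in psi1. No pair lay in the window of sks2 or hsp9. TGACGT was found in ssa2 at -142 and in wos2 at -188, against 5.9% of all promoters. With 500 bases before the start, a width chosen after the first window was read, a pair was again in 8 of 10 members, against 35.0% of promoters, and TGACGT was in 4 (ssa1, ssa2, wos2 and sti1), against 8.44%.

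**Figure D1:**
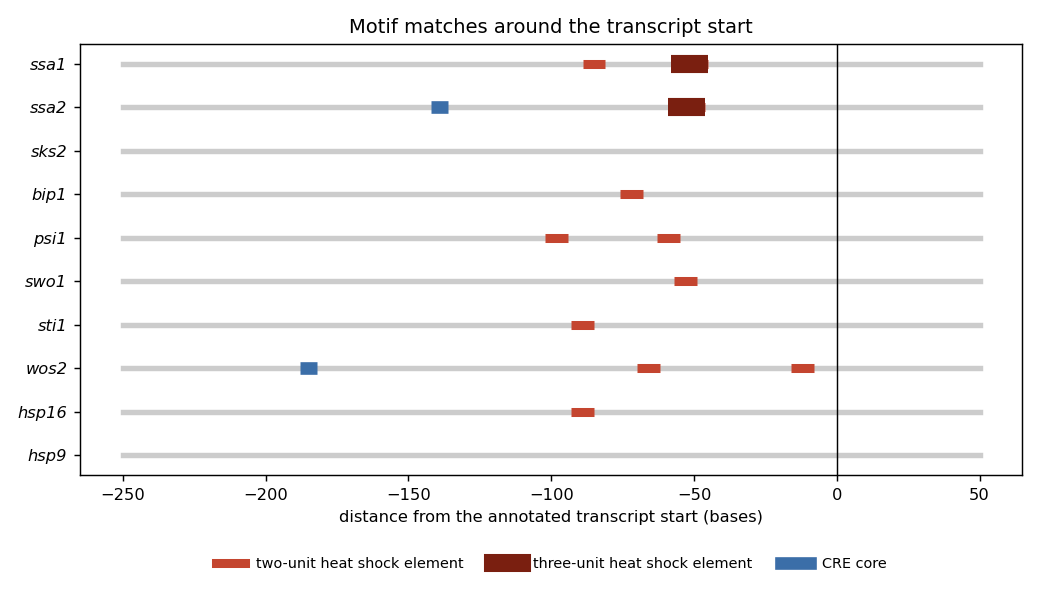
Matches of the heat shock pairs, the triplet and TGACGT in the promoters of the 10 members, plotted by distance in bases from the annotated transcript start. The triplets of ssa1 and ssa2 lie at -58 and -59, and the rows of sks2 and hsp9 hold no pair.

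A match does not show that a factor binds. Of the 970 genes with a pair, 26.3% were higher in H2O2 on Sp_TMA and 24.5% on Sp_EMA, against 25.1% and 22.7% of all genes with a promoter. Of the 23 genes with the triplet, 11 were higher and 2 lower on Sp_TMA, and 10 were higher and 3 lower on Sp_EMA. Over all promoters 31.4% of genes were lower on Sp_TMA and 36.3% on Sp_EMA, and among those with a pair 29.7% and 34.7%. The 2 members with the triplet lay far apart in their change, as ssa1 rose 6.25-fold on Sp_TMA and ssa2 was at 1.05-fold (adjusted p = 0.51).

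In H2O2, 6 of the 10 members were higher on both platforms, none was called lower, and 4 passed the test on neither. The 6 were ssa1, psi1, wos2, sti1, hsp16 and hsp9. The 4 without a call were the Hsp70 genes ssa2, sks2 and bip1 and the Hsp90 gene swo1. A call is a Benjamini-Hochberg adjusted p below 0.05 from limma, two-sided, over all 4854 genes of a platform. By the same rule 25.2% of all genes were higher and 31.3% lower on Sp_TMA, and 22.7% were higher and 36.2% lower on Sp_EMA. On both platforms together, 962 of the 4854 genes were higher and 1311 lower. The median change of the members was 0.72 (log2) on Sp_TMA and 0.28 on Sp_EMA, against -0.05 and -0.07 over all genes. A called rise of at least 2-fold was found for 4 members on Sp_TMA (background 6.32%) and 3 on Sp_EMA (background 5.36%), and such a fall for none (background 4.18% and 4.84%). Both H2O2 arrays lay above both control arrays in 7 members on Sp_TMA (background 35.5%) and 9 on Sp_EMA (background 31.4%), and below them in 1 on each (background 44.7% and 51.2%). An exact permutation test of 1 gene, with 2 arrays in each group, can reach no p below 0.333, so the calls rest on limma's variance, shared across genes.

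**Figure D2:**
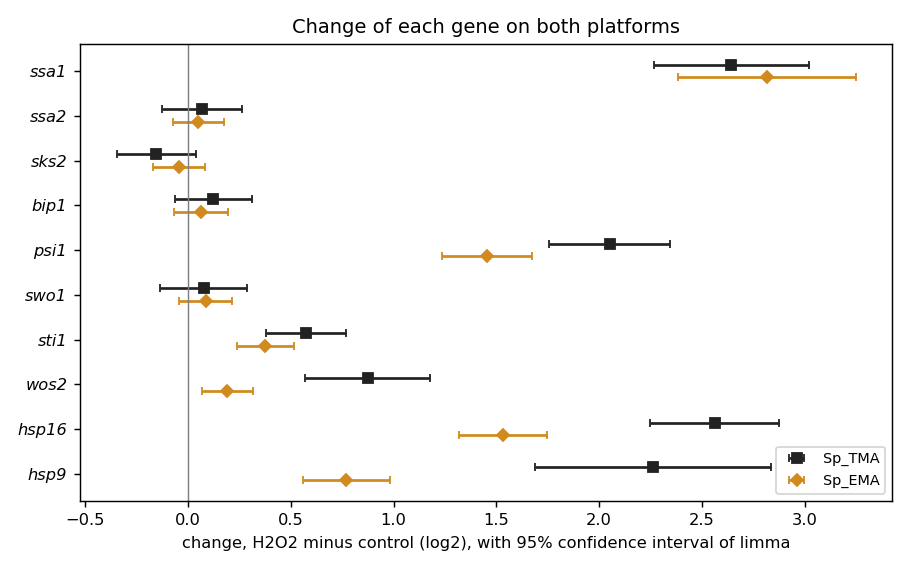
Change of each member in H2O2 (log2, H2O2 minus control) on Sp_TMA and Sp_EMA, with 95% confidence intervals from limma. The intervals of ssa1, psi1, wos2, sti1, hsp16 and hsp9 lie above 0 on both platforms, and those of ssa2, sks2, bip1 and swo1 include 0 on both.

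Among the Hsp70 genes, ssa1, which encodes a cytosolic Hsp70, was the member with the largest rise. Its values (log2) on Sp_TMA were 11.83 and 12.30 in the control arrays of cultures 1 and 2 and 14.77 and 14.65 in H2O2. Both H2O2 arrays lay above both control arrays. The change was 2.64 (log2, standard error 0.15, adjusted p = 5.4e-05), or 6.25-fold with a 95% confidence interval of 4.82 to 8.11, and was the 55th highest of the 4854 genes. On Sp_EMA the values were 11.06 and 11.57 in control cells and 14.14 and 14.13 in H2O2. The change was 2.82 (standard error 0.17, adjusted p = 1.8e-04) or 7.05-fold (interval 5.23 to 9.50). Here too the groups did not overlap, and the control arrays differed from each other more than the H2O2 arrays did.

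The closest relative of ssa1, ssa2, also a cytosolic Hsp70, was on Sp_TMA at 14.91 and 14.94 (log2) in control cells and 15.05 and 14.94 in H2O2. The groups overlapped. The change was 0.07 with a 95% confidence interval of -0.13 to 0.26 (adjusted p = 0.51). On Sp_EMA its values were 14.60 and 14.59 in control cells and 14.65 and 14.65 in H2O2, a change of 0.05 (interval -0.07 to 0.17, adjusted p = 0.416), although both H2O2 arrays were the higher ones. The coding sequences of the pair are identical at 82.9% of 1935 aligned bases, and 42 of the 1911 stretches of 25 bases in ssa1, the length of a probe, also occur in ssa2. A further search that allowed 2 mismatches placed 19.2% of the ssa1 stretches in ssa2. The authors kept only probes with a single match in the genome, and the part of signal shared through mismatched probes in these values was not tested. Other pairs of the 4 Hsp70 genes are identical at 63.8% to 66.0% of aligned bases.

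The gene sks2, which encodes an Hsp70 of the type that acts at the ribosome, had the lowest change of the members on both platforms. On Sp_TMA it was at 14.99 and 15.01 (log2) in control cells and 14.90 and 14.79 in H2O2, a change of -0.15 (interval -0.35 to 0.04, adjusted p = 0.142). On Sp_EMA it was at 14.65 and 14.62 in control cells and 14.60 and 14.58 in H2O2, a change of -0.04 (interval -0.17 to 0.08, adjusted p = 0.483). Both H2O2 arrays lay below both control arrays on each platform, an order that 44.7% of all genes showed on Sp_TMA and 51.2% on Sp_EMA. The gene bip1 encodes the Hsp70 of the endoplasmic reticulum. It was at 14.14 and 14.21 before and 14.33 and 14.27 after H2O2 on Sp_TMA, a change of 0.12 (interval -0.06 to 0.31, adjusted p = 0.22), and at 14.07 and 14.01 in control cells and 14.11 and 14.10 in H2O2 on Sp_EMA, a change of 0.06 (interval -0.07 to 0.19, adjusted p = 0.351). The intervals leave room for a rise of up to 1.24-fold in bip1 on Sp_TMA and 1.14-fold on Sp_EMA.

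The J-domain gene psi1 encodes a cytosolic partner of Hsp70 and is related to Sis1 of budding yeast. On Sp_TMA it rose from 11.85 and 12.16 (log2) in control cells to 14.12 and 13.98 in H2O2. This is a change of 2.05 (standard error 0.12, adjusted p = 5.6e-05), or 4.15-fold. On Sp_EMA it rose from 12.75 and 12.97 to 14.28 and 14.34, a change of 1.45 (standard error 0.09, adjusted p = 1.8e-04) or 2.74-fold. The groups did not overlap on either platform, and each culture showed the rise, with 2.28 and 1.83 for cultures 1 and 2 on Sp_TMA, and 1.54 and 1.37 on Sp_EMA.

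**Figure D3:**
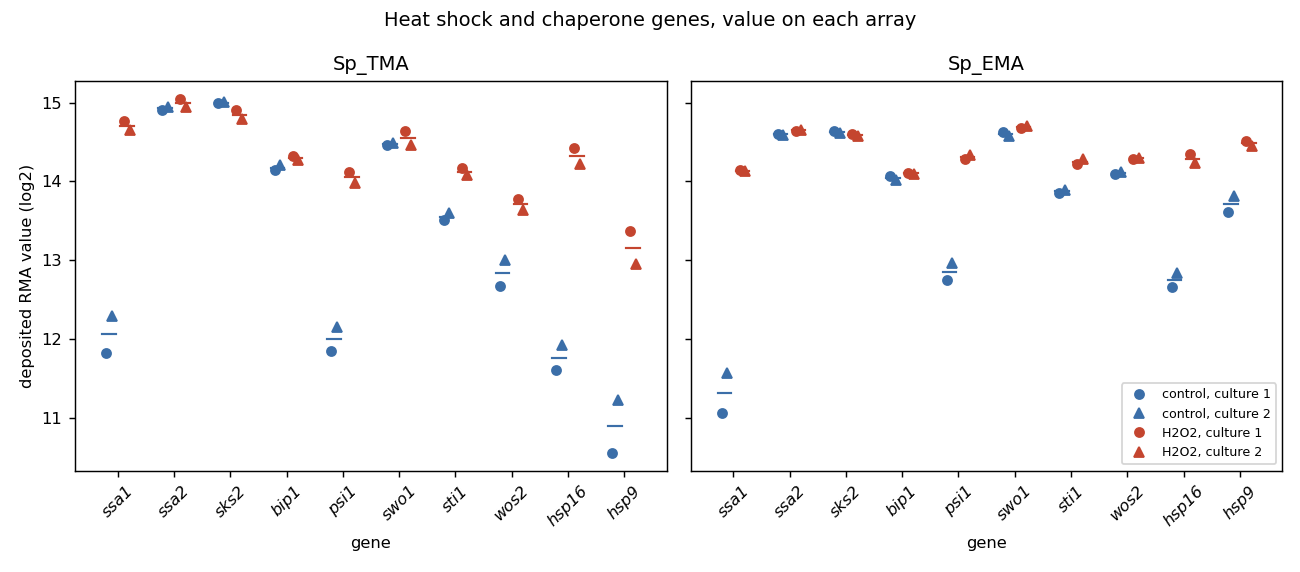
Values of the 10 members (log2, as deposited) on each of the 8 arrays, with control and H2O2 arrays of cultures 1 and 2 marked. The H2O2 points of ssa1, psi1, hsp16 and hsp9 stand apart from their control points, and those of ssa2, sks2, bip1 and swo1 lie close to them. The platforms were normalized separately, so heights are not comparable between the panels.

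Hsp90 itself, encoded by swo1, did not pass the test. On Sp_TMA it was at 14.46 and 14.49 (log2) in control cells and 14.64 and 14.46 in H2O2, a change of 0.08 (interval -0.14 to 0.29, adjusted p = 0.501) that turned to -0.01 (adjusted p = 0.923) without the H2O2 array of culture 1. On Sp_EMA it was at 14.62 and 14.58 in control cells and 14.67 and 14.70 in H2O2, a change of 0.09 (interval -0.04 to 0.22, adjusted p = 0.202). It is the member whose call changed with the variance model, as a fit with an intensity trend in the variance called it higher on Sp_EMA (adjusted p = 0.0123).

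The 2 Hsp90 co-chaperones among the members were both higher. Sti1 joins Hsp70 to Hsp90 and passes clients between them. On Sp_TMA sti1 was at 13.51 and 13.60 (log2) in control cells and 14.17 and 14.08 in H2O2. The change was 0.57 (standard error 0.08, adjusted p = 0.00145) or 1.49-fold. On Sp_EMA it was at 13.85 and 13.89 in control cells and 14.22 and 14.28 in H2O2. The change was 0.38 (standard error 0.05, adjusted p = 0.00289) or 1.30-fold. The H2O2 arrays lay above the control arrays on both platforms.

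The other, wos2, encodes the p23 type co-chaperone, which binds Hsp90 in its closed form. Its values on Sp_TMA were 12.67 and 13.01 (log2) in control cells and 13.78 and 13.64 in H2O2. The change was 0.87 (standard error 0.13, adjusted p = 0.00161) or 1.83-fold. The rise was 1.11 in culture 1 and 0.64 in culture 2. On Sp_EMA the values were 14.09 and 14.12 in control cells and 14.29 and 14.30 in H2O2. The change was 0.19 (standard error 0.05, adjusted p = 0.0218) or 1.14-fold. The arrays of the groups do not overlap there, but the call was lost without control replicate 1 (0.18, adjusted p = 0.065), without H2O2 replicate 1 (0.20, adjusted p = 0.0996) and without H2O2 replicate 2 (0.18, adjusted p = 0.118).

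The small heat shock protein gene hsp16 encodes an alpha-crystallin type chaperone. On Sp_TMA it rose from 11.60 and 11.92 (log2) in control cells to 14.42 and 14.23 in H2O2. The change was 2.56 (standard error 0.13, adjusted p = 3.0e-05) or 5.91-fold. On Sp_EMA it rose from 12.66 and 12.84 to 14.34 and 14.23, a change of 1.53 (standard error 0.08, adjusted p = 1.4e-04) or 2.89-fold. The groups were apart on both platforms, by more than 1 log2 unit between the highest control and the lowest H2O2 array.

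The gene hsp9 encodes a small protein related to Hsp12 of budding yeast, annotated in ASM294v3 as a plasma membrane heat shock protein. On Sp_TMA it was the member with the widest gap between cultures. There it was at 10.56 and 11.23 (log2) in control cells and 13.37 and 12.95 in H2O2. The change was 2.26 (standard error 0.24, adjusted p = 4.6e-04) or 4.80-fold with a 95% confidence interval of 3.22 to 7.15. The rise was 2.81 in culture 1 and 1.71 in culture 2. On Sp_EMA hsp9 was at 13.61 and 13.81 in control cells and 14.51 and 14.45 in H2O2. The change was 0.77 (standard error 0.08, adjusted p = 0.00112) or 1.71-fold (interval 1.47 to 1.98). Its rank among all changes was 80 on Sp_TMA and 354 on Sp_EMA.

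For hsp9, hsp16, psi1, wos2 and sti1 the change on Sp_EMA was the smaller one, and for ssa1 it was not. The tables were normalized separately, so these differences between platforms were not tested. The values that accompany them are as follows. The highest gene of an array was at 15.16 to 15.28 (log2) on Sp_TMA and at 14.93 to 14.96 on Sp_EMA, and in H2O2 the mean of the members lay 0.21 to 2.05 below it on Sp_TMA and 0.27 to 0.85 below it on Sp_EMA. In control cells hsp9 lay 4.37 below the highest gene on Sp_TMA and 1.22 below it on Sp_EMA, and wos2 lay 2.42 and 0.82 below. Of the genes within 0.5 of the highest one in control cells, 26 on Sp_TMA and 109 on Sp_EMA, none was called higher on either platform and 1 was called lower on each. Over all genes 25.2% were higher and 31.3% lower on Sp_TMA, and 22.7% and 36.2% on Sp_EMA. The genes near the top were picked for a place that leaves little room for a rise, so these counts are no test. By their place on this scale ssa2 and sks2 were among these genes on both platforms and swo1 on Sp_EMA. The part of signal near the upper end of the scale in the small changes of these members was not tested.

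The members differ in what lies opposite them. A long non-coding RNA is annotated in ASM294v3 on the other strand of the coding span of 7 of 10 members, and 82.1% of the 4845 genes with a coding sequence there have a gene of any kind opposite it. It covers 99.9% of the coding span of ssa1 and 100% of that of hsp9, 50.8% in wos2, 48.2% in psi1, 28.1% in ssa2, 19.8% in sti1 and 14.7% in bip1, and there was none opposite sks2, swo1 or hsp16. On Sp_EMA, where the target does not keep strand, transcripts of the opposite strands cannot be told apart. Gene structure was simple, with 1 coding exon in 9 of 10 members against 53.1% of genes, and wos2 with 2.

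The members lie on all 3 chromosomes of ASM294v3. On chromosome I are ssa1 (SPAC13G7.02c, 2295580 to 2297964, reverse strand), bip1 (SPAC22A12.15c, 1182693 to 1185485, reverse), swo1 (SPAC926.04c, 3888558 to 3891139, reverse), wos2 (SPAC9E9.13, 4467887 to 4469089, reverse) and hsp9 (SPAP8A3.04c, 5319957 to 5320676, reverse). On chromosome II are sks2 (SPBC1709.05, 1106396 to 1108511, forward) and hsp16 (SPBC3E7.02c, 2660139 to 2660992, reverse). On chromosome III are ssa2 (SPCC1739.13, 2057043 to 2059331, forward), sti1 (SPCC645.14c, 1261338 to 1263575, reverse) and psi1 (SPCC830.07c, 2193527 to 2195534, reverse). Coding lengths run from 207 bases in hsp9 and 432 in hsp16 to 2115 in swo1, around a median of 1173 over all genes.

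On Sp_TMA the values of the members differed between the cultures, before and after H2O2. All 10 members were higher in culture 2 than in culture 1 in control cells, by 0.02 to 0.67 (log2), where 56.6% of all genes were. All 10 were lower in culture 2 in H2O2, by 0.06 to 0.42, where 51.2% of all genes were. So the change was larger in culture 1 for 10 of 10 members, against 54.9% of all genes, and both conditions together held for 33.0% of genes. The largest gaps in control cells were those of hsp9 (0.67), ssa1 (0.47), wos2 (0.34), hsp16 (0.32) and psi1 (0.31), which are 5 of the 6 members that rose. The median absolute gap over all genes in control cells was 0.0848. The gap in H2O2 was not particular to the members. Its median (culture 2 minus culture 1) was -0.12 for them, -0.08 for the 54 further list genes described below and -0.10 for the CCT subunits. Over all genes it was -0.0042. In control cells these medians were 0.20, 0.035 and 0.032, against 0.02 over all genes. The list of small heat shock proteins and disaggregases below, which holds hsp16 and hsp9, had a control median of 0.317. All 5 of its genes were higher in culture 2, so hsp104, hsp78 and hsp20, which are not members, showed this gap too. In the other lists the control median ran from -0.024 (prefoldin) to 0.13 (Hsp90 and its co-chaperones). Whether the gaps reflect the response of a culture or a single array was not tested.

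On Sp_EMA the pattern was partial. In control cells 6 of 10 members were higher in culture 2, against 60.9% of genes, with gaps of 0.51 in ssa1, 0.22 in psi1, 0.21 in hsp9 and 0.18 in hsp16. In H2O2 5 of 10 were lower in culture 2, against 50.3% of genes, and the change was larger in culture 1 for 5 of 10, against 58.3%. These are gaps between 1 array and 1 array and have no test, and the members are not independent of each other. The choice of these counts was made after the values were seen.

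**Figure D4:**
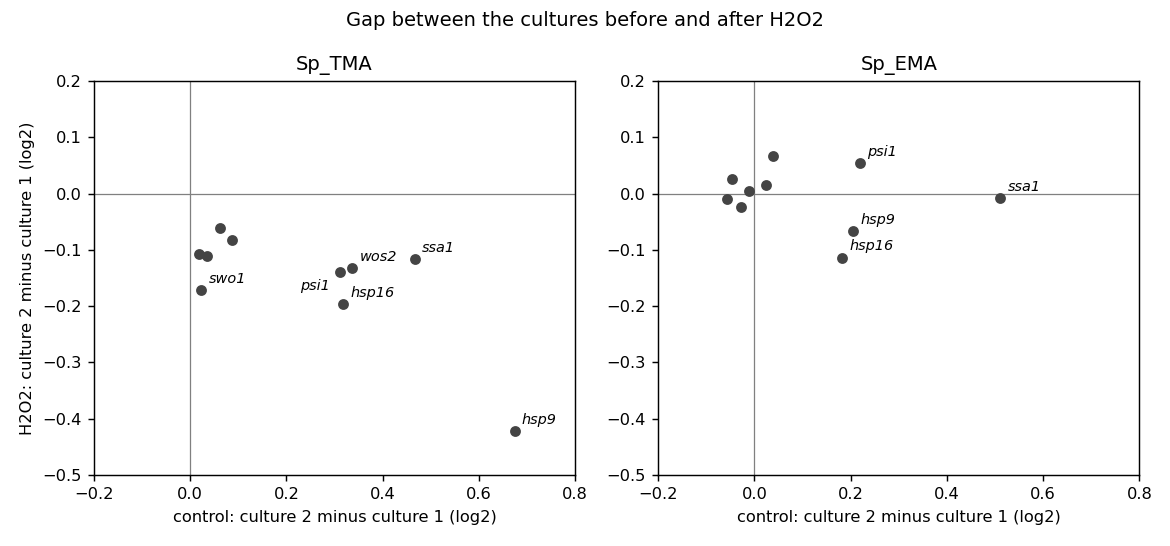
Gap between the cultures (log2, culture 2 minus culture 1) of each member, before and after H2O2, for both platforms. On Sp_TMA all 10 members lie above 0 in control cells and below 0 in H2O2.

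Further chaperone genes were counted in 9 lists of their machinery, and their regulators in 1 more, with 54 measured genes that are not members. On Sp_TMA 19 of the 54 were higher and 5 lower (background 25.2% and 31.3%), and on Sp_EMA 16 were higher and 8 lower (background 22.7% and 36.2%). Calls on both platforms were 15 higher and 3 lower, against 962 higher and 1311 lower among all 4854 genes. The median change of the 54 was 0.07 (log2) on Sp_TMA and -0.01 on Sp_EMA. The background shares given here hold for the counts of each list below too.

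**Figure D5:**
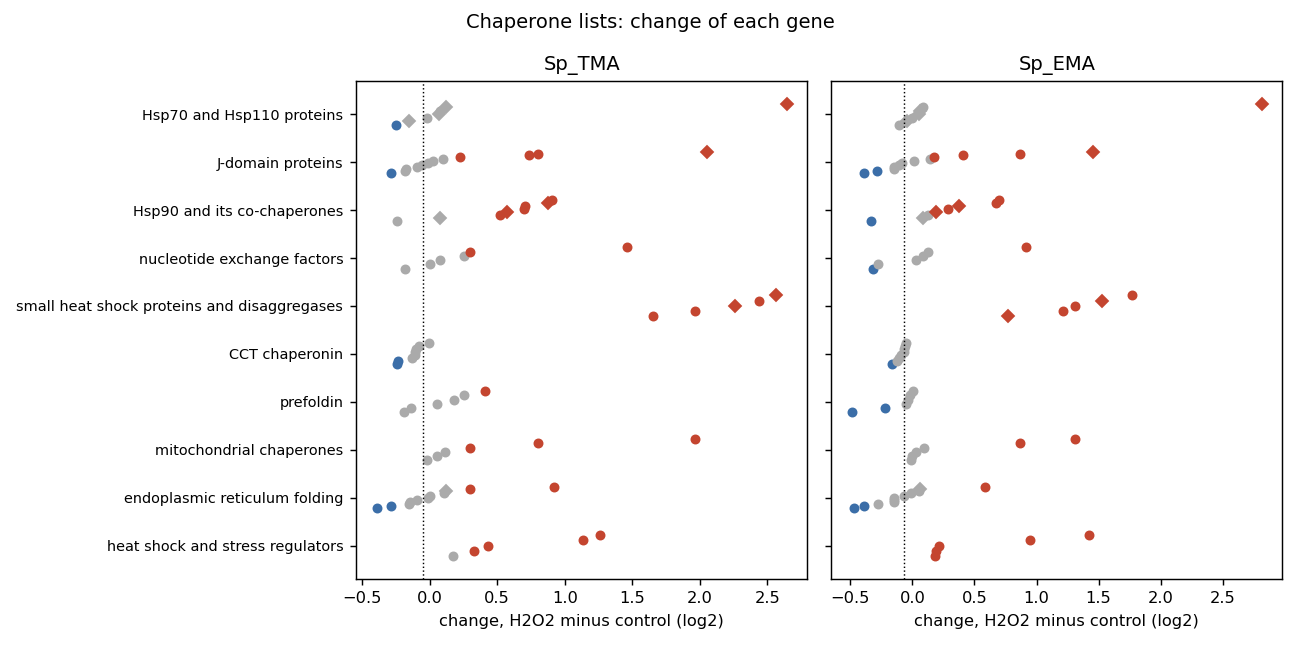
Changes (log2, H2O2 minus control) of the genes of each chaperone list on each platform, with members as diamonds and other genes as circles, called higher in red, called lower in blue and not called in grey. The dotted line is the median change of all genes. All 5 genes in the list of small heat shock proteins and disaggregases, in which hsp9 was counted, lie above 1 on Sp_TMA. The 8 CCT subunits lie below 0 on both platforms, as does the dotted line.

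In the list of small heat shock proteins and disaggregases all 5 genes were higher on both platforms, with a median change of 2.26 (log2) on Sp_TMA and 1.31 on Sp_EMA. Besides hsp16 and hsp9 these were hsp104, which pulls proteins out of aggregates (2.44, adjusted p = 2.6e-05, and 1.77, adjusted p = 4.2e-05), its mitochondrial relative hsp78 (1.97 and 1.31) and hsp20, of the small heat shock protein family (1.65 and 1.21). In the list of Hsp90 and its co-chaperones 6 of 8 genes were higher on Sp_TMA, and 5 were higher and 1 lower on Sp_EMA. Beyond wos2 and sti1, cdc37, which loads kinases onto Hsp90, changed by 0.91 and 0.68, git7, the SGT1-like co-chaperone, by 0.70 and 0.70, and aha1, the activator of the Hsp90 ATPase, by 0.71 and 0.29. The cyclophilin gene wis2, which was named after its value was seen and whose promoter holds the triplet, was higher on Sp_TMA (0.52, adjusted p = 0.00631) and at 0.13 on Sp_EMA (adjusted p = 0.0732, or 0.00181 with the intensity trend). The co-chaperone gene cns1, named likewise, was lower on Sp_EMA (-0.33, adjusted p = 0.00552) and at -0.24 on Sp_TMA (adjusted p = 0.0538, or 0.0443 with the intensity trend and 0.0369 without the dimmest genes).

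Of the 7 Hsp70 and Hsp110 genes, ssa1 was higher on both platforms and was the single one called higher on either. Of the others ssz1, a ribosome-associated Hsp70 relative named after its value was seen, was called lower on Sp_TMA (-0.25, adjusted p = 0.0273), and that call was lost when any of the 4 arrays was left out (adjusted p 0.0635 to 0.127) and with the replicate block (0.074). The mitochondrial Hsp70 ssc1 was at -0.02 and -0.01 and the Hsp110 gene pss1 at 0.08 and 0.09, neither with a call. Among 12 J-domain genes 4 were higher and 1 lower on Sp_TMA (background 25.2% and 31.3%). On Sp_EMA 4 were higher and 2 lower (background 22.7% and 36.2%). Beside psi1 the mitochondrial mdj1 rose by 0.80 and 0.87 and spf31 by 0.73 and 0.41. Named after its values were seen, mas5 was called higher on both (0.23, adjusted p = 0.0386, and 0.17, adjusted p = 0.0352), but each call was lost when any 1 of the 4 arrays was left out (adjusted p up to 0.162 and 0.184), and that on Sp_TMA with the replicate block (0.107). Likewise named, ucp7 was lower on Sp_EMA (-0.28, adjusted p = 0.00735, or 0.0576 without H2O2 replicate 2). The endoplasmic reticulum gene erj5 fell by 0.29 and 0.39, and its call on Sp_TMA was lost without control replicate 1, control replicate 2 or H2O2 replicate 2 (adjusted p up to 0.183). Of the nucleotide exchange factors fes1, which serves cytosolic Hsp70, rose by 1.46 (adjusted p = 1.6e-04) and 0.92 (adjusted p = 3.1e-04), the largest change of that list of 6 on both platforms. The other calls in it, named after their values were seen, were mge1, which serves mitochondrial Hsp70 (0.30 on Sp_TMA, adjusted p = 0.0289, lost without control replicate 1, control replicate 2 or H2O2 replicate 1 with adjusted p up to 0.115, and after quantile normalization at 0.13, adjusted p = 0.199), and bag102 (-0.32 on Sp_EMA, adjusted p = 0.00633, or 0.0516 without H2O2 replicate 2).

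The cytosolic chaperonin CCT, a ring of 8 subunits that folds actin and tubulin, had changes below 0 in all 8 subunits on both platforms. The medians were -0.11 on Sp_TMA and -0.08 on Sp_EMA, and the medians over all genes were also below 0, at -0.05 and -0.07. The calls were 2 lower on Sp_TMA, cct5 and cct7 (background 31.3%), and 1 lower on Sp_EMA, cct5 (background 36.2%). No call of cct5 or cct7 on Sp_TMA was kept without control replicate 1, control replicate 2 or H2O2 replicate 2 (adjusted p up to 0.176 and 0.186), and that of cct5 on Sp_EMA was lost without any 1 array (up to 0.175). For cct5 the changes were -0.25 (adjusted p = 0.0461) and -0.16 (adjusted p = 0.0407), and neither call was kept with the replicate block (adjusted p = 0.0791 and 0.0643). For cct7, named after its value was seen, the change on Sp_TMA was -0.23 (adjusted p = 0.0498, and 0.0989 with the block). Prefoldin, which hands clients to CCT, had 1 of 6 genes higher on Sp_TMA (background 25.2%) and 2 lower on Sp_EMA (background 36.2%). None of them was called on both platforms. The higher one was pfd2 (0.41, adjusted p = 0.0085, or 0.0566 without control replicate 1). The lower ones were bob1 (-0.49, adjusted p = 0.00288) and pfd4 (-0.22, adjusted p = 0.0379). The call of pfd4 was lost without control replicate 1, control replicate 2 or H2O2 replicate 2 (adjusted p up to 0.186) and with the replicate block (0.0512). These 3 were likewise named after their values were seen.

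In mitochondria, hsp78 and mdj1 were higher on both platforms, whereas the chaperonin genes mcp60 (0.11 and 0.09) and hsp10 (0.05 and -0.01) had no call. In the endoplasmic reticulum, where bip1 had no call, 2 of 11 folding genes were higher and 2 lower on Sp_TMA (background 25.2% and 31.3%). On Sp_EMA 1 was higher and 2 lower (background 22.7% and 36.2%). The calnexin gene cnx1, named after its value was seen and also with the triplet in its promoter, was higher on Sp_TMA alone (0.29, adjusted p = 0.0321), a call lost without control replicate 1, control replicate 2 or H2O2 replicate 1 (adjusted p up to 0.155). The 2 genes for Ero1, the oxidase that drives disulfide formation, moved in opposite directions. The gene ero11 rose by 0.92 (adjusted p = 2.7e-04) on Sp_TMA and 0.59 (adjusted p = 0.00128) on Sp_EMA. The gene ero12 fell by 0.39 (adjusted p = 0.00665) on Sp_TMA and by 0.47 (adjusted p = 0.0019) on Sp_EMA.

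Of the regulators, hsf1, the gene of the heat shock factor, rose by 1.14 (log2, adjusted p = 1.1e-04) on Sp_TMA and 0.95 (adjusted p = 2.0e-04) on Sp_EMA. The gene of the transcription factor Atf1 rose by 1.26 and 1.43, and prr1, which encodes a response regulator with a heat shock factor type DNA-binding domain, by 0.43 and 0.19. The call of prr1 on Sp_EMA was lost without control replicate 1, H2O2 replicate 1 or H2O2 replicate 2 (adjusted p up to 0.142). Of the list of 5 regulators 4 were higher on Sp_TMA and all 5 on Sp_EMA. The remaining calls, named after their values were seen, were sty1 (0.33, adjusted p = 0.0125, and 0.21, adjusted p = 0.0215) and, on Sp_EMA, pap1 (0.18, adjusted p = 0.0274), and each was lost without 3 of the 4 arrays in turn, with adjusted p up to 0.0734 and 0.13 for sty1 and 0.14 for pap1. After quantile normalization sty1 was at 0.18 on Sp_TMA (adjusted p = 0.132).

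The genes nearest to the 3 members with the largest change on Sp_TMA were found by Euclidean distance over the 8 arrays, with each platform centred on its control mean. Nearest to ssa1 was mug143 at a distance of 0.25 (log2), with changes of 2.72 on Sp_TMA and 2.91 on Sp_EMA. Nearest to hsp16 was pbi2, which encodes an inhibitor of proteinase B, at 0.21, with changes of 2.68 and 1.47. Nearest to hsp9 was SPAC26F1.11, which encodes an uncharacterized protein, at 0.69, with changes of 2.31 and 0.57. The distance for hsp9 is over 2 times that for the others, and hsp9 had no gene as close to it as ssa1 and hsp16 had.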

How the data were processed

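The arrays numbered 8, with 4 on each platform. What was deposited is a log2 expression value for every gene on each array, computed by the authors with RMA from probes grouped per gene. They had kept probes that occur once in the genome and lie inside annotated exons or reading frames. The methods name a Sanger Centre genome annotation release for this step. The software version and the name of the genome build are not given in the sources used here. No further normalization was applied. Both tables hold the same 4854 genes, of which 4845 were matched to ASM294v3.

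Each platform was fitted alone with limma (version 3.58.1, R 4.3.3), using lmFit and eBayes with no culture term and two-sided tests, and p was adjusted by Benjamini-Hochberg. Arrays with one replicate number are paired, because by the labels every culture gave a sample before H2O2 and another after it. Across 4854 genes the culture gap in control cells had r = -0.0585 with the gap after treatment on Sp_TMA, and r = 0.253 on Sp_EMA. The fit was tested on simulated data with 200 changed genes. For Sp_TMA it found 64 of 67 genes changed by log2 0.5, 67 of 67 changed by 1 and 66 of 66 changed by 2, and called 19 others. For Sp_EMA it found 67 of 67, 67 of 67 and 66 of 66, and called 10 others. The simulated noise was normal, independent between arrays, of the spread that limma had fitted, and without a gap between cultures. In the data far more genes were called, 1222 higher and 1519 lower on Sp_TMA. The recovery therefore describes that setting and cannot show how the fit performs on these arrays. The number of arrays limits the precision, and the median SD between cultures on Sp_TMA was 0.06 (log2) before and 0.0721 after H2O2, whereas Sp_EMA had 0.0535 and 0.0431.

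The members and the 10 lists were chosen with earlier results of these data known. The lists hold 64 measured genes, 10 of them members, and 6 names were not matched. The rule for naming genes took the 10 members and up to 3 further genes of each list. These were the ones with the largest absolute change on Sp_TMA among those called in the same direction on both platforms. It also took the gene nearest to each of the 3 members that changed most. Outside the rule are the genes said to be named after their values were seen, and ssc1, pss1, mcp60 and hsp10, which had no call on either platform. Motifs, overlaps and positions come from the ASM294v3 genome and its RefSeq annotation, with promoters cut at its transcript starts, since no promoter table was used here. Scripts ran in Python 3.11.15 with pandas 2.3.3, numpy 2.4.6, scipy 1.17.1, Biopython 1.88 and matplotlib 3.10.9.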

Additional observations from a re-analysis of the deposited data

How the results depend on the processing

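Results were recomputed with the replicate block, with a variance that follows intensity, with robust estimation of it, without each array in turn, after median centring, after quantile normalization, without the dimmest 25% of genes, at a threshold of 0.01 and with a 2-fold minimum. Of 120 values of members, 117 on Sp_TMA and 112 on Sp_EMA kept their direction and side of the threshold. The count of members called higher stayed at 6 on both platforms with the replicate block, and was 6 on Sp_TMA and 5 to 6 on Sp_EMA when arrays were left out. With a 2-fold minimum 3 members were higher on Sp_EMA, the list genes outside the members were 6 higher and 0 lower on Sp_TMA and 4 higher and 0 lower on Sp_EMA, and all genes were 307 higher and 203 lower on Sp_TMA against 260 and 235 on Sp_EMA. Of the list genes outside the members, 5 on Sp_TMA and 8 on Sp_EMA were lower. On Sp_TMA these were 2 with the replicate block, 14 after quantile normalization and 1 at an adjusted p of 0.01, and on Sp_EMA 14 with the intensity trend. Leaving out arrays gave 1 to 5 lower and 15 to 18 higher on Sp_TMA and 4 to 8 lower and 12 to 14 higher on Sp_EMA. Over all genes it gave 885 to 1066 higher and 1145 to 1324 lower on Sp_TMA, against 810 to 1062 and 1300 to 1708 on Sp_EMA. The block called 1210 genes higher and 1470 lower on Sp_TMA, against 1110 and 1738 on Sp_EMA. Among the named genes it changed no call other than those given beside their values. On Sp_TMA the block's adjusted p followed the size of the change alone among members and named genes, whatever their spread. For ssz1 (-0.2498), cct5 (-0.2459), cct7 (-0.2322) and mas5 (0.2271) it was 0.074, 0.0791, 0.0989 and 0.107. A call kept or lost with the block on Sp_TMA, here or above, is therefore no check of the pairing. Without a call, swo1 on Sp_TMA ran from -0.011 to 0.161 when arrays were left out, pfd2 on Sp_EMA from -0.107 to 0.119 (-0.0007 after quantile normalization) and mge1 on Sp_EMA, a mitochondrial exchange factor, from -0.0255 to 0.0766 (-0.009 after quantile normalization). Calls of single list genes also changed in these cases. The intensity trend called ssz1 (adjusted p = 0.00474) and cct7 (0.0267) lower on Sp_EMA, quantile normalization called bag102 lower on Sp_TMA (0.0327) and ended the call of mas5 on Sp_EMA (0.0589), and median centring ended those of cct7 on Sp_TMA (0.0502, as did robust estimation) and cct5 on Sp_EMA (0.0667). The causes were not tested. All rows of each table in place of the shared genes was not run, because the tables hold the same genes.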

Other observations

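The promoters of ssa1, ssa2 and swo1 share the 12 bases AGGGTTAGGGTT just before their first printed pair of GAA units or, in ssa1, before its triplet, starting at -73, -75 and -72 from the transcript start. The stretch was noticed after the sequences were read. It was found in 18 of the 4845 promoters (0.372%), and of those 18 genes 1 was called higher and 7 lower on each platform, where 25.2% of all genes were higher and 31.3% lower on Sp_TMA and 22.7% and 36.2% on Sp_EMA. The 18 include the 3 members, and the 1 gene called higher was ssa1. The median change of the 18 was -0.12 (log2) on both platforms, against -0.05 and -0.07 over all genes.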
